A study of Mus musculus with 25 samples.

Results

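Rab genes encode the largest family of small GTPases that direct membrane traffic. Members were taken as all genes whose platform symbol is Rab followed by a number, with at most a letter and a digit after it, on array rows that carry a single gene symbol. This gave 59 Rab genes of 19938 genes. By their known site of action 15 belong to early and recycling endosomes, 14 to late endosomes, lysosomes and phagosomes, 13 to secretion and exocytosis, 15 to the ER and Golgi, and 2 to the cilium and other sites.

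A Rab protein is a switch. Bound to GTP it sits on one membrane and recruits effectors, such as motors and tethers, and bound to GDP it is drawn back into the cytosol. Exchange factors load the GTP, and GTPase-activating proteins end the active state. Escort proteins bring the Rab to the prenyl transferase, which adds the lipid anchor, and GDI proteins carry the GDP form. In phagocytes the early endosome Rab5 gives way to Rab7 as cargo moves towards the lysosome. Rab27a, Rab32 and Rab38 serve lysosome-related and secretory organelles, and a further set, including Rab43 and Rab39, has been tied to the presentation of internalised antigen on MHC class I.

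The cells came from Peyer's patches, the lymphoid follicles of the small intestine, of female wild-type C57BL/6 mice aged 6 to 8 weeks. Each replicate was a pool of 42 mice, so an array averages over animals. Conventional dendritic cells (cDC) were gated on high CD11c with MHC class II. CD11b+ cDC (5 arrays) and DN cDC (3 arrays), which lack CD11b, CD8α and CD4, carried SIRPα, while CD8α+ cDC (3 arrays) did not. LysoMac, the lysozyme-producing macrophages of the patch, had high CD11c but little MHC class II, and carried SIRPα, CD4 and BST2. They were split into TIM-4- LysoMac (3 arrays), placed by the labels mainly in the subepithelial dome, and TIM-4+ LysoMac (3 arrays), placed mainly in the interfollicular T cell zone. These 5 groups were untreated. CD11b+ cDC (3 arrays) and CD8α+ cDC (5 arrays) were also taken 9 h after oral R848, a synthetic TLR7 ligand. The design calls the replicates independent, and the p-values measure the spread between these pools.

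All values are log2 signals of RMA-normalized arrays, and an error after ± is the SE of a difference unless named otherwise. A gene was called at an adjusted p under 0.05 (limma, Benjamini-Hochberg over all genes tested). Row names of the table matched the 8 R848 arrays only. Rows of the untreated CD8α+ arrays and of the other 14 untreated arrays had to be matched to them by order and level, and unmatched rows were dropped. Of the 59 members 49 had a row in the set of 14 untreated arrays, 44 in the untreated CD8α+ set and 39 in all 3 sets, while 5 (Rab4b, Rab5a, Rab8a, Rab8b and Rab21) had one in the R848 set alone. Comparisons inside a set do not depend on the scaling of another set. In comparisons across sets the array set and the group cannot be told apart, and matching by level can favour rows with small differences. There a member is said to rise or fall only where it was called with the same sign on the deposited scale, with array medians made equal and by cyclic loess. Olfactory, vomeronasal and taste receptor genes gave a background reference of 4.24 (95th percentile of 1227 genes). By their group means, 39 members were above it in every group measured and 11 in some groups, and 9 (Rab3b, Rab3c, Rab7b, Rab15, Rab27b, Rab34, Rab36, Rab40b and Rab42) were below it throughout.

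Marker lists were compared with the labels. The 8 macrophage markers measured in all sets averaged 9.60 to 9.72 per array in LysoMac and 6.39 to 7.29 in CD11b+ and DN cDC. The 4 cDC markers averaged 6.32 to 6.73 in LysoMac and at least 9.51 in untreated cDC, and the 6 cDC1 markers averaged 9.65 to 9.82 in untreated CD8α+ cDC against 5.56 to 6.40 in the other untreated groups. Single markers went against their lists: in LysoMac Fcgr1 was lower (-0.31 ± 0.11) and Dpp4 higher (0.27 ± 0.08) than in CD11b+ and DN cDC, and Lyz2 was not called (0.54 ± 0.60). The cDC1 marker Irf8 was also higher in LysoMac (2.27 ± 0.14). Batf3, another cDC1 marker, was not higher in untreated CD8α+ than in CD11b+ cDC (-0.51 ± 0.14 as deposited, a call that did not hold under all 3 scalings). Itgam, which encodes CD11b, was high in untreated CD11b+ cDC but lower after R848 (-2.88 ± 0.19), where its mean was below the background reference and its difference from CD8α+ cDC was 0.01 ± 0.19. The R848 group labelled CD11b+ is therefore called so by its label. In sorted bulk samples fewer cells of a type and less RNA per cell cannot be told apart.

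Untreated LysoMac had more Rab27a, Rab32, Rab38, Rab31, Rab3d and Rab12 transcript than untreated CD11b+ and DN cDC, by 2.04-fold to 4.86-fold, and 6.61-fold less Rab30, a Golgi member. In LysoMac 12 of the 49 members tested were called higher and 6 lower, 18 together. The background was 31.3% of 16000 genes, 14.6% in the upward and 16.6% in the downward direction. The median difference of the members was 0.05 against 0.00 over all genes, so the family did not shift as a whole. By role, 6 of 13 late endosome, lysosome and phagosome members were higher and 2 lower, and 4 of 9 secretory members were higher and 1 lower. Early and recycling endosome members had 1 of 12 higher and 1 lower, ER and Golgi members 1 of 13 higher and 2 lower, and neither Rab23 nor Rab28 was called.

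**Figure D1:**
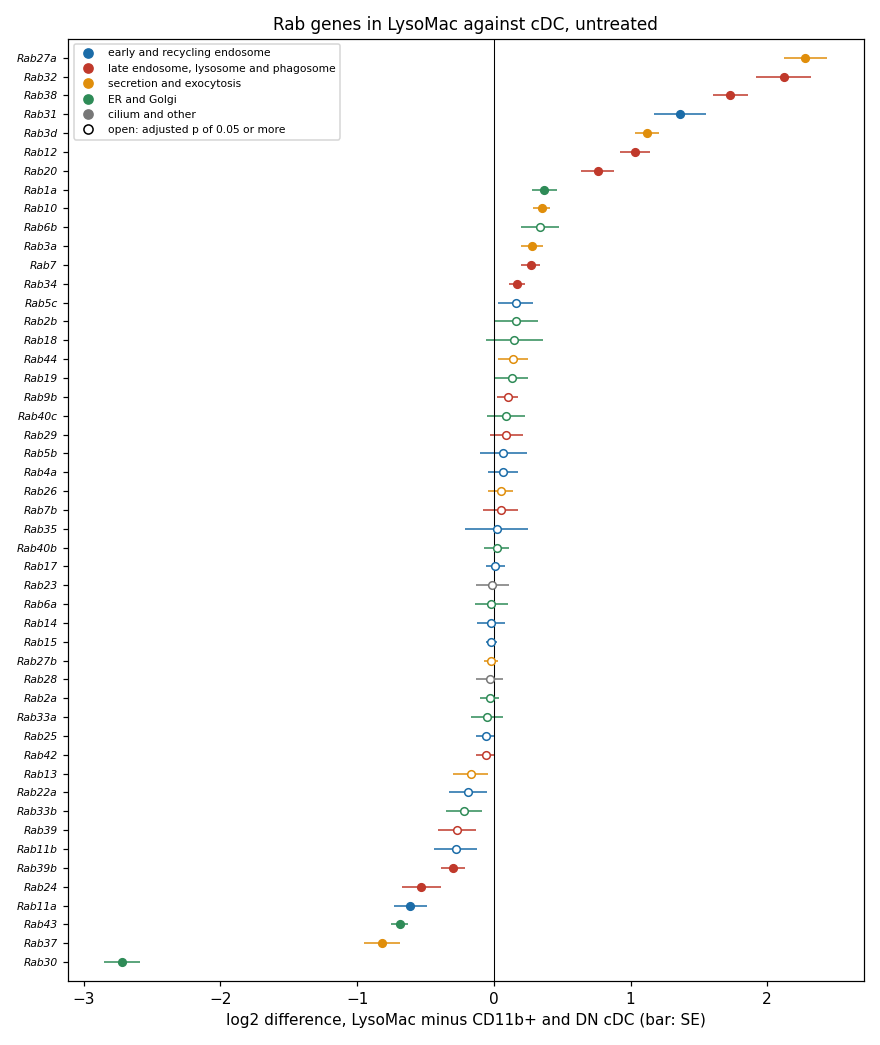
Log2 difference of each of the 49 Rab genes with a row in that array set, untreated LysoMac minus untreated CD11b+ and DN cDC, with bars for the SE. Colour gives the role, filled points were called at an adjusted p under 0.05 and open points were not. Rab30 lies at -2.72 at the lower end and Rab27a at 2.28 at the upper end, and most members lie near 0.

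Rab27a tethers secretory lysosomes and granules to the plasma membrane. Its lowest, median and highest signals were 9.28, 9.46 and 9.61 in the 6 LysoMac arrays and 6.64, 7.07 and 8.04 in the 8 cDC arrays. The groups did not overlap, and the difference was 2.28 ± 0.16 (adjusted p = 6.93e-11). Its close relative Rab27b stayed below the background reference, with group means of 3.74 in both LysoMac groups and 3.75 and 3.77 in DN and CD11b+ cDC.

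Rab32 and Rab38, a related pair that delivers cargo to melanosomes and other lysosome-related organelles, moved in the same direction. Rab32 ran from 9.00 through a median of 9.35 to 9.45 in LysoMac and from 6.27 through 7.19 to 8.66 in cDC. The ranges were apart and the difference was 2.12 ± 0.20 (adjusted p = 3.67e-08). Rab38 signals were 8.56, 8.81 and 8.92 (lowest, median, highest) in LysoMac and 6.29, 7.21 and 7.91 in cDC, again without overlap, with a difference of 1.73 ± 0.13 (adjusted p = 4.63e-10). CD11b+ cDC were uneven in Rab32: replicates 1 to 3 were at 7.13, 7.43 and 7.25 and replicates 4 and 5 at 8.45 and 8.66. Both of these replicates were also the highest of their group in Rab27a (7.74 and 8.04, the others 6.64 to 7.15). The same split was seen in further members, among them Rab11b (9.16 and 9.18, the others 8.25 to 8.34) and Rab18 (6.95 and 6.92, the others 5.67 to 6.17). In Rab9b replicates 4 and 5 were the lower ones (3.94 and 4.00, the others 4.41 to 4.52). Arrays were left out 1 at a time, so the part of this split in comparisons with CD11b+ cDC was not tested.

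Rab31, which carries receptors from the trans-Golgi network to endosomes, had signals of 6.45, 6.63 and 7.11 in LysoMac and 4.82, 5.29 and 6.26 in cDC. The groups did not overlap, and the difference was 1.36 ± 0.19 (adjusted p = 5.63e-06). Rab3d, a Rab of secretory granules, had signals of 5.11, 5.57 and 5.85 in LysoMac and 4.07, 4.47 and 4.76 in cDC, a difference of 1.12 ± 0.09 with no overlap (adjusted p = 1.73e-09). Rab12, which directs receptors from recycling to degradation, had signals of 5.63, 6.14 and 6.60 against 4.99, 5.14 and 5.54, a difference of 1.03 ± 0.11 (adjusted p = 1.94e-07). LysoMac were above every cDC array in all 3 of these genes.

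Rab20, a phagosome Rab of macrophages, was higher in LysoMac by 0.76 ± 0.12 (8.50 to 9.17 against 7.86 to 8.46, adjusted p = 1.7e-05). Rab7, the switch of late endosomes, was higher by 0.27 ± 0.07, a small but separate shift (10.18 to 10.30 against 9.77 to 10.10, adjusted p = 0.00697). Rab1a of ER to Golgi traffic (0.37 ± 0.09), Rab10 of exocytosis (0.35 ± 0.06) and the granule Rab3a (0.28 ± 0.08) were also higher. Rab34, tied to lysosome positioning, was called at 0.17 ± 0.06 (adjusted p = 0.0403), below the background reference in all groups, and the call was lost in 4 alternative fits, among them cyclic loess (adjusted p = 0.0556), and on leaving out any of 9 single arrays.

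Rab30, a Golgi Rab, showed the largest difference of the 49 members. Its lowest, median and highest signals were 4.50, 5.30 and 5.67 in LysoMac and 7.66, 7.89 and 8.25 in cDC. Every LysoMac array lay far under every cDC array, and the difference was -2.72 ± 0.13 (adjusted p = 2.1e-13). Rab37, a granule Rab, had signals of 4.55, 4.72 and 4.80 in LysoMac and 4.72, 5.27 and 6.33 in cDC. The ranges overlapped, and the difference of -0.82 ± 0.13 (adjusted p = 2.6e-05) drew in part on DN cDC, the group with the highest Rab37. The Rab37 array row had 3 matched rows to the nearest gap in this set. Stricter row matching, which asks for 10, dropped it, as it did the rows of Rab1a, Rab3a and Rab24.

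The other lower members lay in 3 different compartments. Rab43, a Golgi Rab described in mouse CD8α+ dendritic cells as needed for cross-presentation, was at 7.03 to 7.41 in LysoMac and 7.68 to 8.17 in cDC, a difference of -0.69 ± 0.06 (adjusted p = 5.05e-09). Rab11a, the Rab of recycling endosomes, was lower by a difference of -0.61 ± 0.12 (7.38 to 8.10 against 8.11 to 8.94, adjusted p = 0.000411). Rab24, which acts in autophagy, was at -0.53 ± 0.14 (7.86 to 8.32 against 8.44 to 8.81, adjusted p = 0.006). Rab39b was at -0.30 ± 0.09 (adjusted p = 0.0151), with group means below the background reference in every untreated group. Of 9 measured members linked to cross-presentation, Rab27a, Rab32 and Rab34 were higher and Rab11a and Rab43 lower. Over all genes 14.6% were called higher and 16.6% lower. Rab34 was below the background reference, with the unstable call described above.

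**Figure D2:**
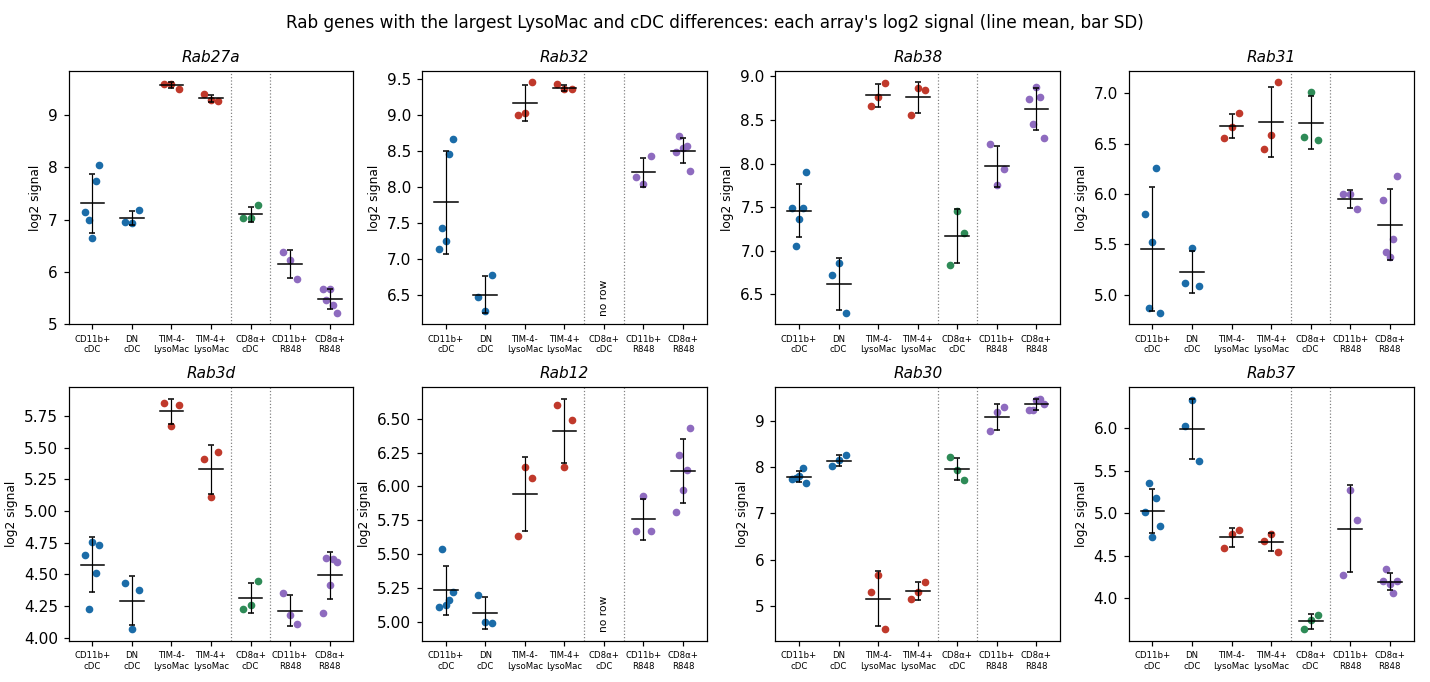
Log2 signal of every array (points) for the 8 Rab genes with the largest LysoMac and cDC differences, by group, with the group mean (line) and SD (bar). Dotted lines part the 3 array sets, whose levels rest on separate row matching, and "no row" marks a set without an accepted row. Both LysoMac groups stand above both untreated cDC groups of their set in Rab27a, Rab32, Rab38, Rab31, Rab3d and Rab12, and below them in Rab30.

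Of the members higher in LysoMac, 11 of 12 had a promoter window in RefSeq (GRCm38.p6, 250 bases before to 50 after a transcript start). Windows were searched on both strands for CACGTG, the core that MITF and TFE factors bind in lysosomal genes, and for GAGGAAG, a purine-rich run of the kind that the macrophage factor PU.1 binds. CACGTG was in 7.15% of all 32851 windows and in a window of 2 of the 11 genes, against 2 of 28 other tested members. GAGGAAG was in 13.6% of all windows and in those of 3 of the 11 genes, against 4 of the 28. The motifs do not overlap each other in these windows. The windows that hold a match are shown 5′ to 3′ on the gene's strand with the match in capitals, GAGGAAG on the other strand reading CTTCCTC. Rab12 lies at chr17:66519621-66519920 (minus strand), Rab20 at chr8:11478591-11478890 (minus), Rab27a at chr9:73063898-73064197 (plus, the second of 2 windows) and Rab32 at chr10:10558158-10558457 (minus).
Rab12: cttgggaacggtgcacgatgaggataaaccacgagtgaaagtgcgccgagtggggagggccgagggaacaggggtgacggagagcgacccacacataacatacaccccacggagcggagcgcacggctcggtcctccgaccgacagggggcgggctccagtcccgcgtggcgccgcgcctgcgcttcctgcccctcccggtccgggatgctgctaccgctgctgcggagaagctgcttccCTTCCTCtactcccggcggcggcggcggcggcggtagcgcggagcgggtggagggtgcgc
Rab20: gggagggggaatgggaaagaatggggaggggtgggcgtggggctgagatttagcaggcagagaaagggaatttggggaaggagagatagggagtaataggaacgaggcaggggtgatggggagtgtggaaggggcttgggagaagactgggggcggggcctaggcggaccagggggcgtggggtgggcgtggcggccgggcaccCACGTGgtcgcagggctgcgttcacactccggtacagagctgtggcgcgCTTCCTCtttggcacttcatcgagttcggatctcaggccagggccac
Rab27a: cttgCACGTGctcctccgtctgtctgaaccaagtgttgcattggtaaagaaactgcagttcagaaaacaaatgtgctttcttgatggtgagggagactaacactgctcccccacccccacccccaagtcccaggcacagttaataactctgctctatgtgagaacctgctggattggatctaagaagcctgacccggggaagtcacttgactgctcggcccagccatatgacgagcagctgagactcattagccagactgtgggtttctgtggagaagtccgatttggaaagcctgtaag
Rab32: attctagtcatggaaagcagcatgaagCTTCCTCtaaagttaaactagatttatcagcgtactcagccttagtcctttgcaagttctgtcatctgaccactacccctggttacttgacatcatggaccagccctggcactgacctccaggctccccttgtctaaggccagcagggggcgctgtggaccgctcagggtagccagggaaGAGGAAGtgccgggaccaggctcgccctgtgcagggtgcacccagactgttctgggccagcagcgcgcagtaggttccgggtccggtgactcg
Rab20 holds both motifs and Rab32 holds GAGGAAG on either strand. TGACTCA, bound by AP-1 factors, was in 5.2% of all windows and in those of 3 members (Rab15, Rab34 and Rab39b). The core of the interferon-stimulated response element was in 3.44% of windows and in that of Rab19 alone among the 48 members with a window. These matches describe letters and are not measured sites.

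Markers of other cells also differed in this comparison. All 3 T cell markers were lower in LysoMac (per-array means 5.20 to 6.30 against 6.14 to 7.42), and so were 8 of 9 stromal and endothelial markers, whose per-array means were 4.33 to 5.52 in LysoMac, 4.31 to 5.19 in CD11b+ cDC and 7.17 to 7.44 in DN cDC. Of 3 B cell markers Cd79b was higher in LysoMac (2.52 ± 0.28) and Ms4a1 lower (-1.36 ± 0.21). The part of all these markers in the Rab differences was not tested.

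Some of the genes that load, unload and read Rab proteins also differed between LysoMac and cDC. Of 27 exchange factors 7 were higher and 7 lower in LysoMac, of 31 GTPase-activating proteins 10 were higher and 7 lower, of 39 effectors 12 were higher and 6 lower, and of 6 genes of the escort and GDI cycle 1 was higher and 2 lower. Their medians were -0.07, 0.14, 0.02 and -0.21. Over all genes 31.3% were called, 14.6% higher and 16.6% lower. Rin3, an exchange factor for Rab5 and Rab31, had the largest difference of these lists at -3.05 ± 0.11. Dennd3, the exchange factor for Rab12, was higher by 1.85 ± 0.09, and Sbf2, which acts on Rab21 and Rab28, by 1.29 ± 0.10. Of the Rab11 effectors, Rab11fip5 was higher (2.23 ± 0.13) and Rab11fip1 lower (-2.11 ± 0.11). Osbpl1a, the Rab7 effector that senses cholesterol, was higher by 1.87 ± 0.11. Among the GTPase-activating proteins Tbc1d2b was higher (1.33 ± 0.14), and Tbc1d10c (-1.61 ± 0.13) and Tbc1d9 (-1.29 ± 0.08) were lower. In the cycle list Gdi2, which extracts Rab proteins from membranes (-0.85 ± 0.08), and the escort protein Chm (-0.66 ± 0.10) were lower, and Rabggta, a chain of the prenyl transferase, was higher (0.62 ± 0.10).

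TIM-4+ and TIM-4- LysoMac did not differ in any Rab gene at the threshold used. Of 49 members 0 were called by limma, where 0.45% of all genes were, and 5 members had an unadjusted p under 0.05. The share of all genes at that unadjusted threshold was not counted. Differences ran from -0.46 to 0.59, and 48 of 49 lay between -0.5 and 0.5. Rab3d was closest to a call, at 5.85, 5.67 and 5.84 in TIM-4- and 5.41, 5.11 and 5.47 in TIM-4+ LysoMac (-0.46 ± 0.14, adjusted p = 0.291). Rab40c had the largest difference (0.59 ± 0.21, adjusted p = 0.529), and was called once TIM-4+ replicate 3 was left out, the low array of its group at 5.43 beside 6.36 and 6.38. Rab27a was at 9.61, 9.61 and 9.51 in TIM-4- and 9.41, 9.29 and 9.28 in TIM-4+ LysoMac, apart but not called (-0.25 ± 0.23). None of the exchange factors, GTPase-activating proteins, effectors and cycle genes was called either.

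DN cDC differed from CD11b+ cDC in few members. Of 49 members 5 were called, 2 higher and 3 lower in DN cDC, where 4.18% of all genes were called, 2.54% higher and 1.64% lower. With call and sign required under all 3 scalings 1 was higher and 2 were lower (3.31% of all genes, 1.96% higher and 1.35% lower). Rab32 signals were 6.46, 6.27 and 6.77 in DN cDC, under all 5 CD11b+ arrays (7.13 to 8.66), and the difference was -1.28 ± 0.27 (adjusted p = 0.00624). Rab38 followed, at 6.72, 6.86 and 6.29 in DN and 7.49, 7.05, 7.37, 7.49 and 7.91 in CD11b+ cDC, a difference of -0.84 ± 0.18 (adjusted p = 0.00605) without overlap. Rab37 went the other way, with 6.03, 6.33 and 5.62 in DN cDC above 5.02, 5.36, 4.72, 5.18 and 4.85 in CD11b+ cDC (0.97 ± 0.17, adjusted p = 0.00123). Its row is the one that stricter row matching dropped. Rab43 (-0.30 ± 0.08, adjusted p = 0.0262) lost its call after cyclic loess, and the Golgi gene Rab6b (0.70 ± 0.19, adjusted p = 0.0423) lost it under both other scalings. With these scalings included, each lost its call in 4 alternative fits. The calls were also lost on leaving out any of 5 single arrays for Rab43 and any of 6 for Rab6b. The Rab32 call was lost without DN replicate 2 (adjusted p = 0.0509) and that of Rab38 without DN replicate 3 (adjusted p = 0.0686). With the 8 arrays fitted alone 1 member was called.

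Markers of other cells moved with this comparison. Of 9 stromal and endothelial genes 8 were higher in DN cDC, and the 7 measured in all sets averaged 7.17 to 7.44 per DN array against 4.31 to 5.19 in CD11b+ cDC. All 7 were above the background reference in DN cDC, and Cdh5, Dcn, Pdgfra and Bgn were below it in CD11b+ cDC. In DN cDC 2 of 7 epithelial markers (Vil1 and Fabp1), 1 of 4 plasma cell markers (Jchain) and 1 of 2 NK cell and ILC markers (Il7r) were also higher, and 4 of 7 cDC2 markers (Itgam, Zeb2, Mgl2 and Cd209a) were lower. Their part in the Rab differences was not tested. Of the genes that regulate or read Rab proteins 1 was called, the exchange factor Dennd5a (-0.58 ± 0.13).

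After R848 CD8α+ cDC had more transcript of several Rab genes than CD11b+ cDC, among endosomal, secretory and Golgi members alike, and less of 3. Both groups lie in the set to which the row names belong, so all 59 members were tested. CD8α+ cDC were higher in 13 and lower in 3, 16 calls together. Of all 19938 genes 12.4% were called, 5.76% higher and 6.66% lower. With call and sign required under all 3 scalings 12 were higher and 3 lower, where 5.34% and 5.97% of all genes were. The median was 0.13 for the members and 0.03 over all genes. Early and recycling members had 3 of 15 higher, late endosome members 3 of 14 higher and 1 lower, secretory members 4 of 13 higher and 2 lower, and ER and Golgi members 3 of 15 higher.

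Rab22a, which recycles MHC class I and other cargo from endosomes, led the list. It was at 8.12, 8.19, 8.25, 7.72 and 7.69 in CD8α+ and 7.09, 6.80 and 6.94 in CD11b+ cDC. Every CD8α+ array was higher, and the difference was 1.05 ± 0.18, or 2.07-fold (adjusted p = 0.000287). Rab8b, of exocytosis, was at 11.82, 11.78, 11.84, 11.81 and 11.73 against 11.21, 10.84 and 10.92 (0.81 ± 0.09, adjusted p = 0.000287). Rab5a, which governs fusion of early endosomes, was at 8.02, 7.82, 8.01, 8.20 and 7.90 against 7.22, 7.34 and 7.48 (0.65 ± 0.10, adjusted p = 0.00232). Neither gene had a row in the untreated sets, and in both the groups were apart.

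Rab43 was at 8.10, 8.07, 8.25, 8.07 and 8.05 in CD8α+ and 7.62, 7.66 and 7.67 in CD11b+ cDC after R848. The groups did not overlap, and the difference was 0.46 ± 0.08, or 1.37-fold (adjusted p = 0.000257). Rab38 was at 8.74, 8.46, 8.88, 8.76 and 8.29 against 8.22, 7.75 and 7.94 (0.65 ± 0.18, adjusted p = 0.016), all CD8α+ arrays being higher. Rab11b, of recycling endosomes, was at 9.40, 9.34, 9.21, 8.84 and 8.74 against 8.66, 8.15 and 8.43 (0.69 ± 0.21, adjusted p = 0.029). This last value did not hold up, since the mean over both Rab11b probe clusters gave 0.30 (adjusted p = 0.39). Rab9, which returns receptors from late endosomes to the Golgi, was higher by 0.60 ± 0.13, the tight junction and exocytic Rab13 by 0.54 ± 0.17 and Rab2a of the Golgi by 0.52 ± 0.10. Rab6a (0.49 ± 0.15) was not called with array medians equalised, and Rab7b (0.64 ± 0.18) had group means below the background reference. Its CD8α+ arrays were at 3.44, 4.26, 4.71, 3.93 and 3.68, so that replicates 2 and 3 were above that reference.

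Rab24, Rab27a and Rab37 were lower in CD8α+ cDC after R848. Rab24 was at 6.08, 6.38, 6.63, 6.47 and 6.87 against 6.72, 7.56 and 7.50 in CD11b+ cDC, with 1 CD8α+ array inside the other range (-0.77 ± 0.19, adjusted p = 0.00827). Rab27a was at 5.67, 5.45, 5.66, 5.36 and 5.21 against 6.37, 6.23 and 5.85, apart, with a difference of -0.68 ± 0.21 (adjusted p = 0.0349). Rab37 was at -0.63 ± 0.17 (adjusted p = 0.0178), near the background reference in CD8α+ cDC (4.06 to 4.34). The small CD11b+ group weighed on this comparison: without its replicate 2 the count was 8, and Rab24, Rab38, Rab11b and Rab27a were not called (adjusted p = 0.0842, 0.119, 0.184 and 0.13). Without its replicate 3 Rab24, Rab38, Rab11b and Rab7b were not called (adjusted p = 0.0709, 0.0625, 0.0825 and 0.0833), and Rab27a was also lost without its replicate 1 (adjusted p = 0.162). Single CD8α+ arrays likewise ended the calls of Rab11b (replicates 1, 2 and 3), Rab27a (replicates 2, 4 and 5) and Rab7b (replicate 2). With the 8 arrays fitted alone 10 members were called.

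**Figure D3:**
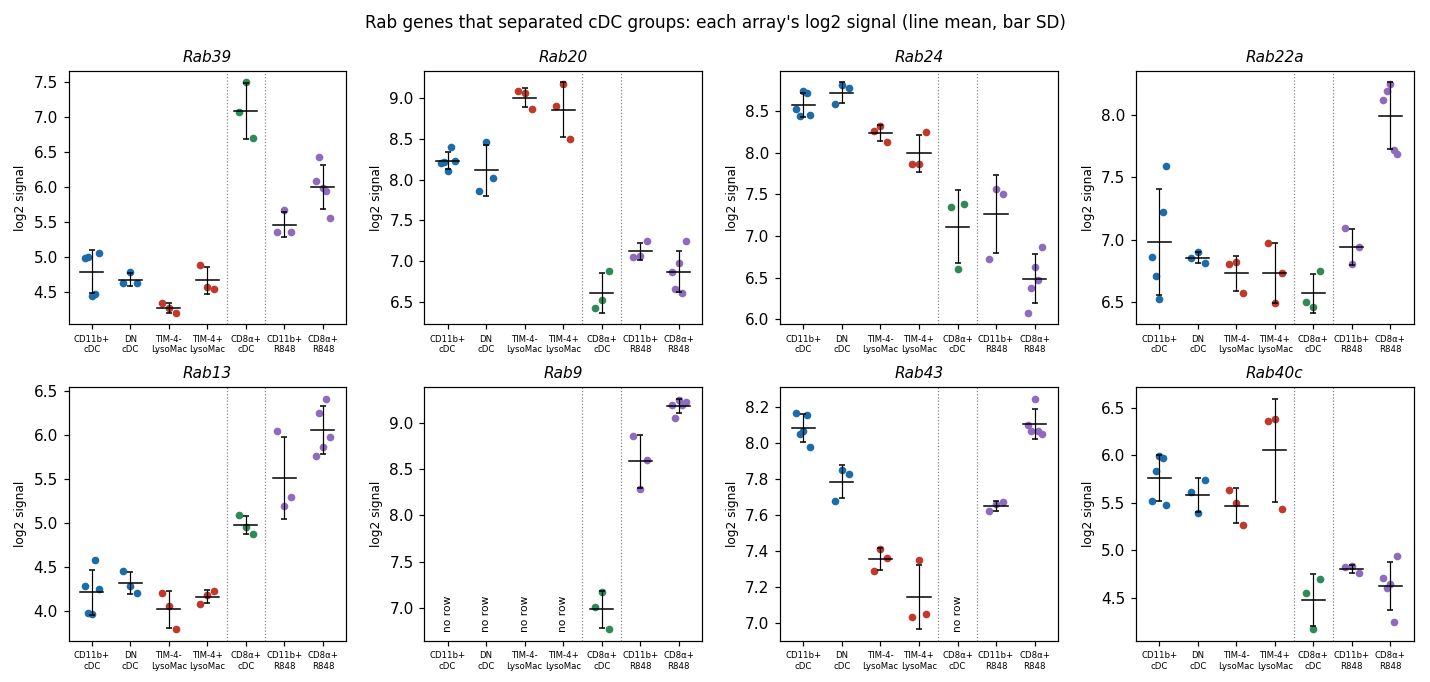
Log2 signal of every array (points) for 8 Rab genes that separated cDC groups, with the group mean (line) and SD (bar). Dotted lines part the 3 array sets, and "no row" marks a set without an accepted row. Rab39 is highest in untreated CD8α+ cDC, Rab20 is low in untreated CD8α+ cDC and in both R848 groups, and Rab22a is highest in CD8α+ cDC after R848.

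B cell markers differed too, with 3 of 4 lower in CD8α+ cDC (per-array means of 2 genes 6.03 to 6.86 against 7.49 to 8.26), as were 4 of 6 plasmacytoid, 4 of 12 macrophage and 5 of 8 cDC2 markers. Of 4 T cell markers 1 was higher (per-array means of 3 genes 4.89 to 6.67 against 4.76 to 4.91). Their part in the Rab differences was not tested. Of the regulators, Rin2 (-1.38 ± 0.17) and Rin3 (-0.96 ± 0.14) were lower and Rabgef1 higher (0.82 ± 0.13), 3 exchange factors that act on Rab5. In that list of 32 genes 3 were higher and 4 lower, where 5.76% of all genes were higher and 6.66% lower. Of 35 GTPase-activating proteins 7 were higher and 1 lower, Rabgap1l by 0.76 ± 0.16. Of 48 effectors 5 were higher and 2 lower, the 2 being the motor Myo5a, which Rab27a engages in melanocytes (-1.87 ± 0.11), and Mical1 (-1.15 ± 0.15). Gdi2 was the 1 gene of 7 called in the cycle list (-0.70 ± 0.11).

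Without treatment the CD8α+ and CD11b+ cDC lie in different array sets. Of 39 members with a row in both, 19 were called on the deposited scale, 8 higher and 11 lower in CD8α+ cDC, where 47.4% of 13703 genes were. There were 13 higher and 6 lower with array medians equalised and 13 against 9 by cyclic loess. Over all genes 1195 were higher and 5297 lower as deposited, 3126 and 2027 with medians equalised and 2499 and 2525 by cyclic loess. The median of all genes was -0.19 as deposited and 0.06 and -0.01 after the other scalings. With call and sign required under all 3 scalings 8 members were higher and 6 lower, where 8.72% and 14.5% of all genes were.

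Rab39, which acts on phagosomes, had the largest difference. It was at 7.07, 7.50 and 6.70 in CD8α+ cDC and 4.99, 5.00, 4.44, 4.47 and 5.05 in CD11b+ cDC. The groups were well apart, and the difference was 2.30 ± 0.18, or 4.93-fold (adjusted p = 1.76e-09), and 2.55 and 2.57 under the other scalings. Its array row was matched with 5 and 3 matched rows to the nearest gap in the untreated sets, and the stricter matching that asks for 10 dropped it, as it did Rab20, Rab24, Rab37 and Rab31. DN cDC and both LysoMac groups had Rab39 means of 4.67, 4.27 and 4.66. After R848, inside 1 array set, CD8α+ cDC were at 6.08, 6.43, 5.99, 5.94 and 5.56 and CD11b+ cDC at 5.36, 5.67 and 5.35, with overlap, a difference of 0.54 ± 0.18 just short of a call (adjusted p = 0.055). It was called with array weights (adjusted p = 0.0141), by cyclic loess (0.0416), with the replicate block (0.0158), without dim genes (0.0376) and without CD8α+ R848 replicate 5 (0.0169).

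Rab20 was lower in untreated CD8α+ cDC, at 6.42, 6.52 and 6.88 against 8.20, 8.22, 8.11, 8.40 and 8.23 (-1.62 ± 0.16, adjusted p = 3.63e-08). Rab24 was at 7.35, 6.61 and 7.38 against 8.52, 8.44, 8.74, 8.72 and 8.45 (-1.46 ± 0.19, adjusted p = 3.22e-06). All CD8α+ arrays lay under all CD11b+ arrays in both genes. Rab37 was at 3.64, 3.74 and 3.81 against 5.02, 5.36, 4.72, 5.18 and 4.85 (-1.29 ± 0.17, adjusted p = 4.17e-06), so that it was below the background reference in CD8α+ cDC. Rab40c, a Rab that joins a ubiquitin ligase, was at 4.55, 4.17 and 4.70 against 5.52, 5.84, 5.99, 5.97 and 5.48 (-1.29 ± 0.19, adjusted p = 1.31e-05). Rab31 was higher, at 6.57, 7.01 and 6.54 against 5.80, 4.87, 5.52, 6.26 and 4.82 (1.25 ± 0.26, adjusted p = 0.000461). Groups did not overlap in these 3 genes.

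The other members that held were Rab13 (0.76 ± 0.17), Rab10 (0.52 ± 0.08), Rab19 (0.47 ± 0.16), Rab9b (0.35 ± 0.11), Rab7 (0.31 ± 0.10) and Rab2a (0.27 ± 0.10), all higher, and Rab2b (-0.96 ± 0.22) and Rab33a (-0.95 ± 0.15), lower. The Rab7 call was lost without CD8α+ replicate 1 or 3 (adjusted p = 0.0836 and 0.1). Rab27a, at 7.02, 7.02 and 7.27 in CD8α+ cDC, was inside the CD11b+ range (-0.21 ± 0.21, adjusted p = 0.435). Rab32 and Rab43 had no accepted row in the untreated CD8α+ arrays. Among regulators, the GTPase-activating protein Tbc1d4, which acts on Rab10, was lower by a difference of -4.02 ± 0.25. Hps4, part of the exchange factor for Rab32 and Rab38, was higher (0.96 ± 0.17), and Dennd4a (-1.04 ± 0.14) and Dennd4b (-0.93 ± 0.14), which act on Rab10, were lower. Exchange factors had 4 of 18 higher and 8 lower, GTPase-activating proteins 3 of 29 higher and 5 lower, effectors 3 of 35 higher and 9 lower, and cycle genes 1 of 6 higher and 2 lower. Of all genes 8.72% were higher and 14.5% lower under the same rule of 3 scalings. All 3 T cell markers were lower in CD8α+ cDC (per-array means 4.28 to 4.50 against 6.14 to 7.22), as were 6 of 8 macrophage markers (5.23 to 5.56 against 6.75 to 7.29), both plasmacytoid markers measured (6.79 to 6.95 against 8.88 to 9.27) and 2 of 7 epithelial markers. Their part in the Rab differences, that of Rab20 included, was not tested.

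In CD11b+ cDC after R848, Rab30 and Rab13 rose most and Rab24, Rab27a and Rab20 fell most. Of 49 members 24 were called, 15 higher and 9 lower after R848, where 40.8% of 16000 genes were. Under all 3 scalings 15 members rose (30.6%) and 7 fell (14.3%), where 16% and 16.1% of all genes did, and 44.9% of members against 32.1% of all genes held in either direction. Late endosome, lysosome and phagosome members had 7 of 13 that rose and 2 that fell, early and recycling members 1 of 12 each way, secretory members 2 of 9 each way and ER and Golgi members 3 of 13 that rose and 2 that fell. Rab23 and Rab28 rose. Of the ER and Golgi members, Rab2a rose in the probe cluster used (mean 8.76 to 9.35), while its other cluster had means of 10.06 and 10.02.

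Rab24 fell from 8.52, 8.44, 8.74, 8.72 and 8.45 to 6.72, 7.56 and 7.50 (-1.31 ± 0.19, adjusted p = 1.38e-05). Rab20 fell from 8.11 to 8.40 without treatment to 7.05, 7.06 and 7.24 (-1.11 ± 0.16, adjusted p = 7.92e-06). Rab27a fell from 7.15, 6.99, 6.64, 7.74 and 8.04 to 6.37, 6.23 and 5.85 (-1.16 ± 0.21, adjusted p = 0.000149). In these 3 genes every treated array was below every untreated one, as it was in Rab40c (-0.96 ± 0.19, to 4.82, 4.83 and 4.76). Rab30 rose from 7.74, 7.76, 7.80, 7.98 and 7.66 to 8.77, 9.19 and 9.30 (1.30 ± 0.18, adjusted p = 6.34e-06). Rab13 rose from 4.29, 3.98, 3.97, 4.58 and 4.25, around the background reference, to 6.04, 5.19 and 5.30 (1.30 ± 0.17, adjusted p = 4.53e-06). Groups were again apart. Rab39 rose by 0.67 ± 0.18 and Rab38 by 0.51 ± 0.18, the latter with overlapping arrays and without a call when CD11b+ replicate 2, R848 replicate 1 or R848 replicate 3 was left out (adjusted p = 0.07, 0.15 and 0.0593). Rab43 fell by a difference of -0.44 ± 0.08, and Rab34 rose by 0.28 ± 0.08 under the background reference, a call that was lost without R848 replicate 1 (adjusted p = 0.0534). Rab7 (-0.04 ± 0.10), Rab11a (0.17 ± 0.16) and Rab32 (0.41 ± 0.27) were not called, while Rab32 was called with array weights (0.71, adjusted p = 0.00837), by cyclic loess (0.56, adjusted p = 0.05 after rounding) and without untreated replicate 5 (0.63, adjusted p = 0.0347).

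R848 was followed by more rises than falls among the Rab genes of CD8α+ cDC, and how many depended on the scaling. Of 44 members 29 were called on the deposited scale, 23 higher and 6 lower, where 56.7% of 16252 genes were with an all-gene median of 0.18. They were 14 and 8 with array medians equalised and 15 against 9 by cyclic loess. Over all genes 6805 were higher and 2408 lower as deposited, 3458 and 3370 with medians equalised and 3559 and 3429 by cyclic loess. Under all 3 scalings 14 rose and 6 fell, 20 together, where 33.9% of all genes changed, 19.2% up and 14.7% down. The ER and Golgi list had 5 of 12 members that rose and 2 that fell, the late endosome list 3 of 9 and 2, the secretory list 3 of 11 and 1, and the early and recycling list 2 of 10 and 1.

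Rab9 rose most, from 7.01, 7.17 and 6.77 to 9.20, 9.05, 9.25, 9.20 and 9.23 (2.20 ± 0.13, 4.6-fold, adjusted p = 4.37e-08). Rab22a rose from 6.50, 6.46 and 6.75 to 8.12, 8.19, 8.25, 7.72 and 7.69 (1.42 ± 0.18, adjusted p = 1.51e-06). Rab38 rose from 6.84, 7.46 and 7.20 to 8.74, 8.46, 8.88, 8.76 and 8.29 (1.46 ± 0.18, adjusted p = 8.25e-07). None of these groups overlapped, and the same held for Rab30, which rose from 8.21, 7.94 and 7.73 to 9.24, 9.24, 9.44, 9.48 and 9.36 (1.39 ± 0.18, adjusted p = 1.58e-06). Rab27a fell from 7.02, 7.02 and 7.27 to 5.67, 5.45, 5.66, 5.36 and 5.21 (-1.64 ± 0.21, 3.11-fold, adjusted p = 1.58e-06). Rab39 fell from 7.07, 7.50 and 6.70 to 6.08, 6.43, 5.99, 5.94 and 5.56 (-1.09 ± 0.18, adjusted p = 4.27e-05). Both fell without overlap. Rab24 fell too, by a difference of -0.62 ± 0.19 with overlapping arrays, while Rab20 (0.26 ± 0.16) and Rab7 (-0.09 ± 0.10) were not called. Rab34 (0.43 ± 0.08) and Rab27b (0.53 ± 0.07) rose with group means below the background reference, and Rab11a (0.41 ± 0.16) was called on the deposited scale alone.

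**Figure D4:**
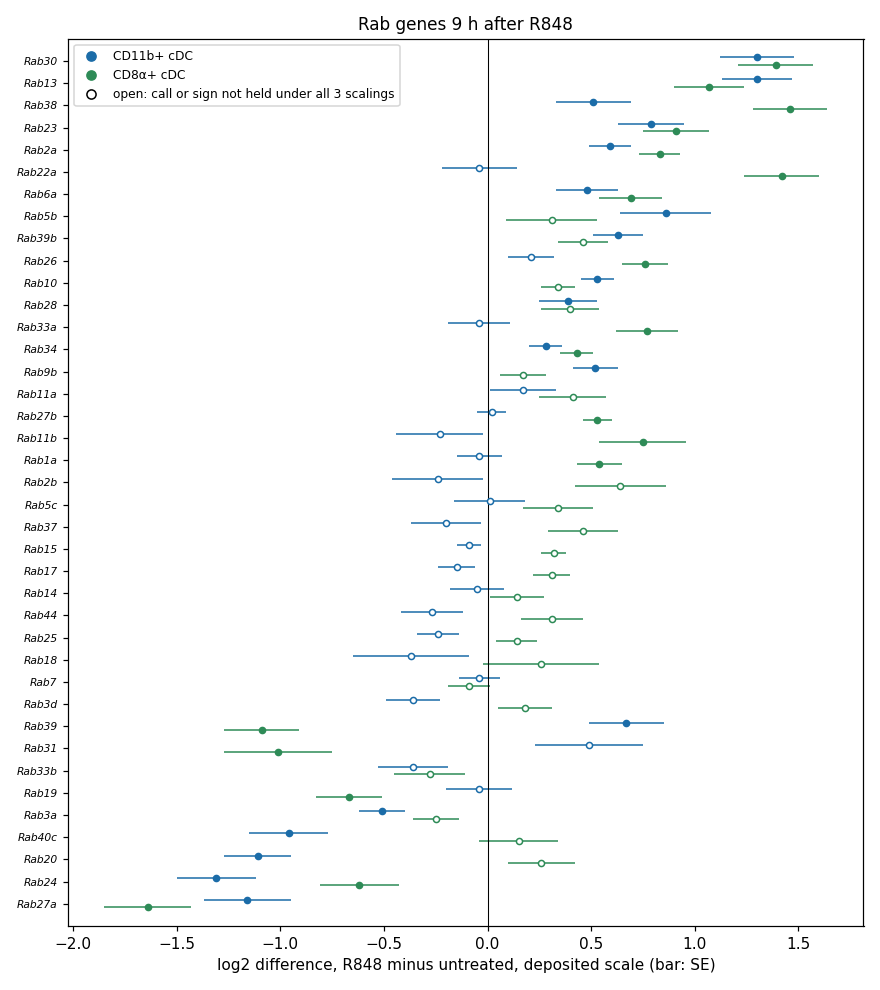
Log2 difference after R848 for the 39 Rab genes with a row in all 3 array sets, in CD11b+ (blue) and CD8α+ (green) cDC on the deposited scale, with bars for the SE. Filled points were called with the same sign under all 3 scalings. Rab30 and Rab13 lie to the right and Rab27a and Rab24 to the left in both subsets, while Rab39 lies at 0.67 in CD11b+ and at -1.09 in CD8α+ cDC.

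The responses share no arrays, but each uses the untreated or treated arrays of the subset comparisons above, and in each the treatment and the array set cannot be told apart. Their values side by side were 1.30 and 1.39 for Rab30, 1.30 and 1.07 for Rab13, -1.16 and -1.64 for Rab27a, and -1.31 and -0.62 for Rab24 in CD11b+ and CD8α+ cDC. The difference of the responses was tested directly. On the deposited scale 19 of 39 members were called, 16 with a higher response in CD8α+ cDC and 3 with a lower one, where 33% of all genes were called, 27% higher and 5.98% lower. With array medians equalised these counts were 3 and 5, and by cyclic loess 6 and 5. Over all genes 3702 were higher and 820 lower as deposited, 1293 and 1637 with medians equalised and 1542 and 1641 by cyclic loess. The median over all genes was 0.21 as deposited. Under all 3 scalings 6 members held, 3 each way, where 15.2% of all genes did, 9.22% higher and 5.98% lower. Of these 6 members only Rab40c was matched with at least 10 rows to the nearest gap in both untreated sets, and the stricter matching dropped the other 5.

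Rab39 differed most, with a response lower in CD8α+ cDC by a difference of -1.76 ± 0.26 (adjusted p = 3.51e-05), since it rose in CD11b+ cDC and fell in CD8α+ cDC. Rab31 was at -1.50 ± 0.36 (adjusted p = 0.00337), falling by a difference of -1.01 ± 0.26 in CD8α+ cDC and not called in CD11b+ cDC (0.49 ± 0.26). Rab22a was at 1.46 ± 0.26 (adjusted p = 0.000235), with 1.42 ± 0.18 in CD8α+ and -0.04 ± 0.18 in CD11b+ cDC. Rab20 (1.38 ± 0.22, adjusted p = 8.99e-05) and Rab40c (1.11 ± 0.27, adjusted p = 0.00352) fell in CD11b+ cDC and were not called in CD8α+ cDC. In CD8α+ cDC both were already low without treatment. Rab19, of the Golgi, was at -0.63 ± 0.22 (adjusted p = 0.0344), and this call was lost when any 1 of 9 arrays was left out, with adjusted p from 0.0504 to 0.125. Rab38 (0.95 ± 0.25) lost its call with array medians equalised (adjusted p = 0.0689). The responses of Rab27a (-0.47 ± 0.30, adjusted p = 0.225) and Rab30 (0.09 ± 0.25, adjusted p = 0.805) were not called as different, and that of Rab27a was called without untreated CD11b+ replicate 5 (-0.65, adjusted p = 0.0468).

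Several Rab regulators also changed after R848. Rin3 fell by a difference of -2.44 ± 0.14 in CD11b+ and -3.23 ± 0.14 in CD8α+ cDC, and Rabgap1l rose by 3.06 ± 0.16 and 2.76 ± 0.16. Vps39, a subunit of the HOPS tether that Rab7 engages, rose by 1.27 ± 0.11 and 1.78 ± 0.11, and Mical1 fell in both (-1.28 ± 0.15 and -1.49 ± 0.15). Tbc1d4 fell in CD11b+ cDC (-1.50 ± 0.25) and rose in CD8α+ cDC (1.95 ± 0.25), a difference of responses of 3.45 ± 0.35. Dennd5a, the exchange factor for Rab39, rose by 1.16 ± 0.13 in CD8α+ cDC, where Hps4 fell (-1.14 ± 0.17). Against 32.1% of all genes (16% up and 16.1% down), in CD11b+ cDC exchange factors had 3 of 27 that rose and 4 that fell, GTPase-activating proteins 5 of 31 and 11, effectors 7 of 39 and 3, and cycle genes 1 of 6 each way. Against 33.9% of all genes in CD8α+ cDC (19.2% up and 14.7% down), these were 9 of 22 and 5, 8 of 29 and 8, 12 of 42 and 9, and 1 of 7 and 3.

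Markers of other cells moved with R848. B cell markers were higher in both subsets (3 of 3 in CD11b+ and 2 of 2 in CD8α+ cDC), with per-array means of 2 genes of 5.10 to 5.81 and 4.65 to 5.14 without treatment and of 7.49 to 8.26 and 6.03 to 6.86 after it. Plasma cell markers were higher for 3 of 4 genes in CD11b+ and 3 of 5 in CD8α+ cDC, where Xbp1 was lower. T cell markers were lower for 3 of 3 genes in CD11b+ cDC and higher for 2 of 3 in CD8α+ cDC. Markers of each subset also moved: 7 of 9 cDC1 markers were lower in CD8α+ cDC after R848, and 5 of 7 cDC2 markers (Sirpa, Itgam, Csf1r, Mgl2 and Cd209a) were lower in CD11b+ cDC, where Itgam, Mgl2 and Cd209a had means below the background reference and Zeb2 was higher. The part of these shifts in the Rab responses was not tested.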

How the data were processed

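RNA of 25 sorted, pooled samples in 7 groups was measured on Affymetrix Mouse Gene 1.0 ST arrays after amplification. The values are log2 signals that the authors deposited after RMA normalization with Expression Console 1.4.1, per the submitters' processing notes. The genome build is not given in the sources used here. Precision is limited by the number of arrays.

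Row names of the table fitted the 8 R848 arrays alone. On genes with 2 probe clusters the clusters correlated at 0.819 across these arrays and, as deposited, at 0.136 and 0.081 in the untreated sets. Rows of the untreated sets were aligned in order to the R848 rows by level (Python 3.11.15, numpy 2.4.6, pandas 2.3.3, numba 0.67.0). A row was kept where 3 settings gave the same partner, in an unbroken run of at least 3 rows on each side, with a correlation of at least 0.7 over 10 neighbours on each side. This kept 76.2% and 78% of the 28939 rows aligned, and raised those correlations to 0.833 and 0.825. Of the rows 21789 carried 1 symbol, 1621 several and 12146 none. Of a gene's clusters, 1 was used.

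A single limma fit (3.58.1, R 4.3.3) of 7 group means gave 8 comparisons, with Benjamini-Hochberg adjustment over all genes tested. It was tested on simulated data. The alternatives were equal array medians, cyclic loess, only the arrays compared, an intensity trend with robust estimation, array weights, no dim genes, the mean over clusters, stricter row matching, a replicate block and each array left out. Same-numbered arrays had correlated deviations of -0.184 to 0.177, so the numbers were not taken to pair samples.

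Within a comparison inside 1 array set up to 8 members with the largest called differences were named, across sets up to 6 that held under 3 scalings, with 3 partner genes per list. Rab7, Rab7b, Rab20, Rab27a, Rab27b, Rab32, Rab34, Rab38, Rab39, Rab43, Rab5a and Rab11a were named throughout where results bear on them, and further called members are given as values. Members and lists were chosen with earlier results of these data known. Promoter windows are from RefSeq (GRCm38.p6).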

Additional observations from a re-analysis of the deposited data

Results flagged for a closer look

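In groups of 5 arrays, 3 values lay far from the other 4 by Dixon's criterion, among 49 such groups looked at, and chance gives about 1 in 20. Rab12, which steers receptors to degradation, was at 5.54 in CD11b+ cDC replicate 2, with the others at 5.11 to 5.22. Rab43 was at 8.25 in CD8α+ cDC replicate 3 after R848, with the others at 8.05 to 8.10. Rab9 was at 9.05 in CD8α+ cDC replicate 2 after R848, with the others at 9.20 to 9.25. Each gap was smaller than the called differences given above for that gene.

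The R848 response differed between CD8α+ and CD11b+ cDC, by the test of the difference itself, in 6 of 39 members under all 3 scalings. This was 15.4% of the members, beside 15.2% of all genes. It was lower in CD8α+ cDC for Rab39 (-1.76 ± 0.26), Rab31 (-1.50 ± 0.36) and Rab19 (-0.63 ± 0.22), and higher for Rab22a (1.46 ± 0.26), Rab20 (1.38 ± 0.22) and Rab40c (1.11 ± 0.27). Each of these contrasts draws on all 3 array sets. Stricter row matching dropped all of these genes but Rab40c, and the Rab19 call was lost when any 1 of 9 arrays was left out.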

How the results depend on the processing

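Over 106 results for single members and 1906 alternative fits, 1796 counted as unchanged. These kept the call, and any sign change within the SE with neither value called was counted among them. Another 87 lost the call, 12 gained one and 0 reversed, and 11 changed sign by more than the SE with neither value called. The changes fell on 31 of the 106 results. Of the counts of called members, DN against CD11b+ cDC went from 5 to 3 by cyclic loess and to 1 with only the arrays compared, and CD8α+ against CD11b+ cDC after R848 from 16 to 10 with only the arrays compared. Stricter row matching left 20 members for CD8α+ against CD11b+ cDC without treatment, of which 7 were called, and for the difference of responses, of which 6 were. That difference had 8 calls with equal array medians and 11 by cyclic loess, against 19. For it, 3702 of all genes were higher and 820 lower as deposited, 1293 and 1637 with equal medians and 1542 and 1641 by cyclic loess. On leaving out single arrays the counts ran from 17 to 20 for LysoMac, 0 to 1 for TIM-4, 2 to 5 for DN cDC, 8 to 15 and 16 to 22 for CD8α+ against CD11b+ cDC after R848 and without treatment, 19 to 25 and 22 to 29 for the responses of CD11b+ and CD8α+ cDC, and 15 to 19 for their difference. With the replicate block the counts were, in the same order, 17, 0, 4, 13, 20, 23, 27 and 15. In DN against CD11b+ cDC 406 of all genes were higher and 263 lower, and with equal array medians 314 and 485. The cause of these shifts was not tested.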
